A study of Bos taurus with 6 samples.

Results

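The CCN genes encode secreted matricellular proteins, which sit in the extracellular matrix and alter how cells respond to it. The 5 members described here are CCN1, CCN2, CCN4, CCN5 and CCN6, chosen by gene name from the 27607 genes of the deposited tables, and the sixth family gene, CCN3, was set apart. The libraries hold messenger RNA of cattle chondrocytes isolated from the deep zone of articular cartilage, next to the bone. Each culture had been infected with a lentivirus that expresses bovine CREB5, a bZIP transcription factor, under control of doxycycline, and had then been selected with G418. In the Dox+ group (3 libraries) the cells received doxycycline, at 1 µg/ml per the labels' treatment protocol, and in the Dox- group (3 libraries) they received none. Both groups were held for 3 days on low attachment plates with 20 ng/ml TGFb2 and 100 ng/ml TGFa, in medium that held 10% FBS (serum), so the Dox- cells received these growth factors and serum too. The cells were infected primary chondrocytes from 3 independently collected knees, no culture without the CREB5 construct or with doxycycline alone was compared here, and effects of CREB5 and of doxycycline itself cannot be told apart. The comparison asked which CCN genes change when CREB5 is forced on in deep zone cells.

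Proteins of this family share a modular layout and act by binding integrins, heparan sulfate proteoglycans, growth factors and other matrix proteins. CCN1 and CCN2 are fast-responding genes that serum, TGF-beta and the YAP and TEAD transcription factors switch on, and CCN2 promotes chondrocyte proliferation and matrix synthesis in growth cartilage. CCN4 and CCN5 were first described as WNT1-inducible genes, and CCN5 lacks the C-terminal cysteine knot module of the others. Loss of CCN6 in humans causes progressive pseudorheumatoid dysplasia, a disease of articular cartilage.

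Depth ranged from 20063379 reads (Dox+ 3) to 122366790 reads (Dox+ 2). Values below are normalized counts, reads divided by the authors' factor for each library, and are not corrected for transcript length, so levels are compared between libraries and not between genes. CREB5 itself, the induced gene, had 20935, 12413 and 21964 normalized counts in Dox+ 1 to 3, against 510, 308 and 330 in Dox- 1 to 3, so every library stood on the side of its label. All 8 chondrocyte markers had reads in each library, although MATN1 had 1.69 and 2.33 normalized counts in Dox+ 1 and Dox+ 3, or 1 read each. The list summed to 102302 to 119256 in Dox+ and 153942 to 301033 in Dox- libraries. COL2A1 stood at 8779 to 22991 in Dox+ cells and 18352 to 57510 in Dox- cells. The cartilage collagen and proteoglycan markers COL9A1 and ACAN were lower in Dox+ cells by the test below. Several defining genes of other cell types were not detected, with CLDN5 (endothelium), DMP1 (osteocytes), CLIC5 (synovial lining), MYH1, MYH2, ACTA1 and MYOD1 (skeletal muscle) and ALAS2 (red cell precursors) at 0 in each of the 6 libraries. The endothelial list summed to 153 to 225 normalized counts in Dox+ and 131 to 294 in Dox- libraries. The leukocyte list gave 381 to 714 in Dox+ and 206 to 462 in Dox- libraries, nearly all of it from CD68 and CD14, with PTPRC at 0 to 2.33 in Dox+ and 0 to 1.84 in Dox- libraries. Other lists were not silent: smooth muscle summed to 5945 to 17283 in Dox+ and 2775 to 8130 in Dox- libraries, mainly from DES, with ACTA2 above DES in Dox- 2, the osteoblast list to 268 to 1256 in Dox+ and 648 to 1862 in Dox- libraries, mostly SP7, and the synovial fibroblast list to 43244 to 53693 in Dox+ and 75904 to 94365 in Dox- libraries, mostly PDPN and THY1. HBA was at 21380 to 46180 in Dox+ and 61116 to 107970 in Dox- libraries while HBB was at 0 to 0.441 in Dox+ and 0 in Dox- libraries, and adipocyte markers summed to 305 to 468 in Dox+ and 147 to 317 in Dox- libraries. The part of such cells in the CCN values was not tested. In bulk RNA, fewer cells that express a gene and less of its RNA per cell cannot be told apart.

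**Figure D1:**
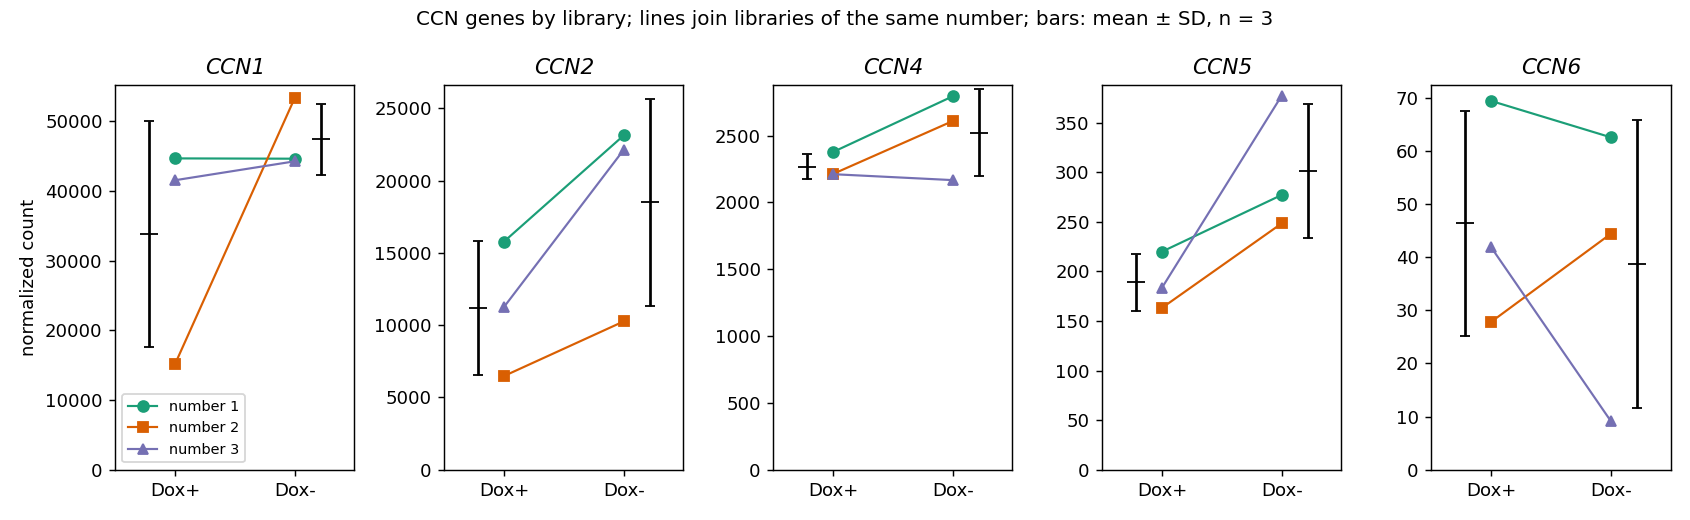
Normalized counts of the 5 CCN genes in each library, on linear axes that start at 0, with Dox+ left of Dox- in each panel. Coloured lines join the libraries of the same number and black bars give the group mean ± SD (n = 3). CCN2 and CCN5 slope the same way for all 3 numbers, CCN1 differs mainly through Dox+ 2, and CCN4 is nearly level.

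None of the 5 CCN genes passed the main test, limma on log2(normalized count + 1) with group as the only term and a Benjamini-Hochberg adjusted p under 0.05, although 1 of them, CCN5, had an unadjusted p under 0.05. That test called 2.88% of the 13180 genes tested, so 0 of 5 lies near the background. The median log2 fold change (Dox+ over Dox-) of the 5 genes was -0.63, the value of CCN1, beside -0.0036 for all genes tested. Without Dox+ 2 the values of CCN1, CCN2, CCN4 and CCN5 were -0.13, -0.38, -0.13 and -0.56, and that of CCN6 was 0.83. edgeR and DESeq2 without a term for the library number also called 0 of 5, with 1 at an unadjusted p under 0.05 in each. Once the number was added as a block, which compares each Dox+ library with the Dox- library of the same number, CCN2 passed in limma, edgeR and DESeq2, and the other 4 did not. The block raised the share of all genes called by limma to 6.51%, with 4.86% of the genes called higher and 1.65% called lower.

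CCN2, long known as connective tissue growth factor, had 15790, 6484 and 11267 normalized counts in Dox+ 1 to 3, against 23134, 10261 and 22136 in Dox- 1 to 3. The ranges of the groups overlapped, since Dox- 2 lay below Dox+ 1 and Dox+ 3, but CCN2 was lower with doxycycline in each of the 3 same-numbered pairs. The Dox+ level was 68.3%, 63.2% and 50.9% of the Dox- level in pairs 1, 2 and 3. Among all genes tested, 19.0% were lower in all 3 pairs.

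Group means of CCN2 were 11180 ± 4654 in Dox+ and 18510 ± 7161 in Dox- cells (SD, n = 3 each), a log2 fold change of -0.73, or 1.66-fold lower. Without the block this did not pass (SE 0.39, 95% interval -1.62 to 0.16, limma adjusted p = 0.63). With the block it did (SE 0.17, 95% interval -1.12 to -0.34, limma adjusted p = 0.035). In edgeR with the block the adjusted p was 0.043, and in DESeq2 with the block it was 0.0047. The share of all genes that these called lower was 1.44% in edgeR and 2.32% in DESeq2. In the authors' deposited table the log2 fold change of CCN2 was -0.66 and its adjusted p 0.0068, and that table listed 2.05% of its genes with an adjusted p as lower at 0.05. The deposited unadjusted p of CCN2, 0.00035, lay nearer to that of DESeq2 with the block (0.00026) than without it (0.062). The deposited call is thus not counted as separate from the blocked fits. Blocked fits that dropped pair 1 or 2 ended the call (limma adjusted p = 0.12 and 0.060) and the fit that dropped pair 3 kept it (adjusted p = 0.0044), all being fits with 1 residual degree of freedom per gene. Without the block, the log2 fold change was -0.38 without Dox+ 2 and -1.11 without Dox- 2.

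CCN1, an angiogenic and adhesive protein formerly called CYR61, had 44648, 15147 and 41516 normalized counts in Dox+ 1 to 3 and 44605, 53279 and 44228 in Dox- 1 to 3. In pairs 1 and 3 the Dox+ level was 100.1% and 93.9% of the Dox- level, and in pair 2 it was 28.4%. Its lower Dox+ mean, 33771 ± 16204 against 47371 ± 5120 in Dox- cells (SD, n = 3 each), thus came from a single library. The log2 fold change was -0.63 (SE 0.39, 95% interval -1.51 to 0.24, limma adjusted p = 0.70), and it did not pass with the block either (adjusted p = 0.39).

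Without Dox+ 2 the CCN1 estimate was -0.13 (limma adjusted p = 0.83). Blocked fits that dropped pair 2 gave -0.045 (limma adjusted p = 0.96). Those that dropped pair 1 or 3 gave -0.95 and -0.91 and passed (limma adjusted p = 0.0497 and 5.3e-05), with 1 residual degree of freedom per gene. The passing fits had an SE of 0.32 and 0.19, moderated over all genes. The log2 ratios of pairs 1 to 3 were 0.0014, -1.81 and -0.091, a gap that these SE values do not show. The passes are thus not read as a change of CCN1. In Dox+ 2, CCN1 lay 2.84-fold below the mean of Dox+ 1 and Dox+ 3 on the log scale, and 3.18% of the genes tested lay at least as far below. Dox+ 2 was the deepest library and had the lowest CREB5 of the Dox+ libraries, and the part of either in the low CCN1 value was not tested. CCN2 was likewise 2.06-fold lower in Dox+ 2 than in the other Dox+ libraries, but Dox- 2 stood apart from its group in the same way for CCN2 (log2 difference -1.14) and not for CCN1 (0.26).

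**Figure D2:**
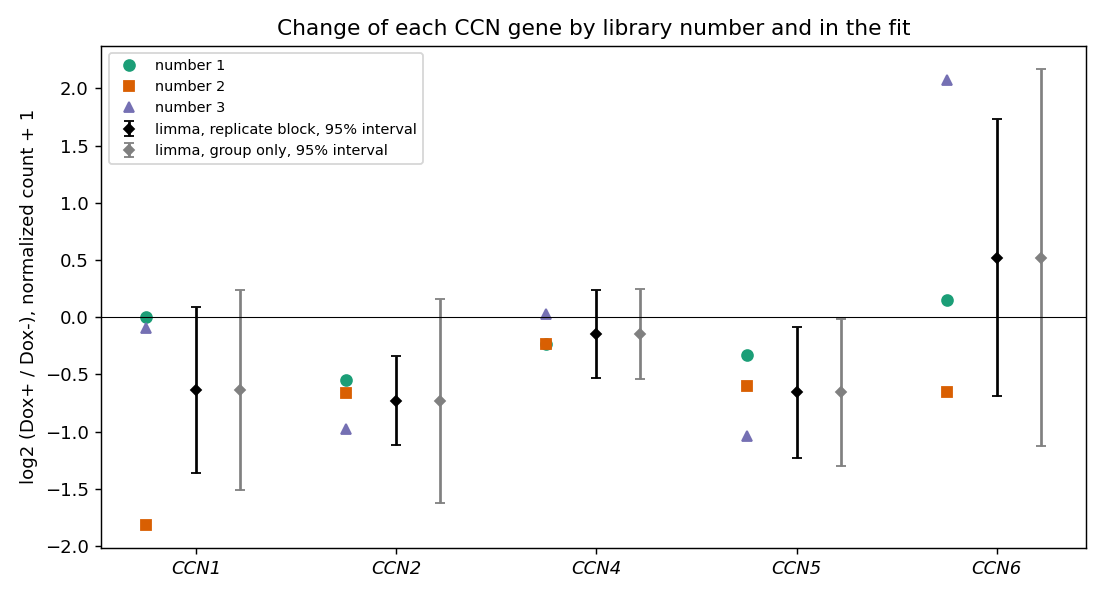
Log2 ratio of Dox+ to Dox- for each CCN gene. Coloured points are the 3 same-numbered pairs, and diamonds with bars are the limma estimate and its 95% interval with the replicate block (black) and with group only (grey). For CCN2 the interval with the block, -1.12 to -0.34, is less wide than the interval without it, while for CCN1 and CCN6 the pairs themselves disagree.

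CCN5, a family member known for restraining growth of smooth muscle cells, had 220, 163 and 184 normalized counts in Dox+ 1 to 3, against 277, 248 and 377 in Dox- 1 to 3. Every Dox+ library lay below every Dox- library, which was also so for 6.29% of the genes tested. The Dox+ level was 79.4%, 65.7% and 48.7% of the Dox- level in pairs 1, 2 and 3.

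On average CCN5 had 189 ± 28.7 normalized counts in Dox+ and 301 ± 67.6 in Dox- cells (SD, n = 3 each). The log2 fold change was -0.66 (SE 0.28, 95% interval -1.30 to -0.017), 1.58-fold lower, with an unadjusted limma p of 0.045. After adjustment over all genes tested it missed the threshold in limma (adjusted p = 0.45, or 0.23 when blocked), and the authors' deposited table gives an adjusted p of 0.26. These values rest on 79 to 370 reads in the Dox+ libraries and 168 to 617 in the Dox- libraries.

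CCN4, known in bone as a promoter of osteoblast differentiation, was the steadiest of the 5. It had 2378, 2213 and 2211 normalized counts in Dox+ 1 to 3 and 2794, 2609 and 2167 in Dox- 1 to 3, and the groups overlapped. Means were 2267 ± 95.4 in Dox+ and 2523 ± 322 in Dox- cells (SD, n = 3 each). The log2 fold change was -0.15 (SE 0.17, limma adjusted p = 0.88). Its 95% interval, -0.54 to 0.25, leaves room for a Dox+ level between 0.686 and 1.19 times the Dox- level.

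CCN6 had few reads in each library. It had 69.4, 27.8 and 41.9 normalized counts in Dox+ 1 to 3 and 62.5, 44.4 and 9.17 in Dox- 1 to 3. Behind these stood 41, 63 and 18 reads in Dox+ cells, against 102, 30 and 15 reads in Dox- cells. The lowest count, 15 reads in Dox- 3, has an exact 95% Poisson interval of 8.40 to 24.7 reads, or 5.13 to 15.1 normalized counts, which covers counting error only and lies below the other 5 values. The log2 fold change was 0.52 (SE 0.73, 95% interval -1.13 to 2.17, limma adjusted p = 0.90), and without Dox- 3 it was -0.28.

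The 5 genes also differed in how much they varied inside a group. On the log2 scale the within-group SD was 0.14 for CCN4 and 0.27 for CCN5, below the median of 0.35 over all genes tested. It was 0.63 for CCN1, 0.65 for CCN2 and 1.09 for CCN6, the last at percentile 94.8 of the genes tested. For CCN1 nearly all of this spread was in the Dox+ group (SD 0.87, against 0.15 in Dox-). For CCN2 it was equal in both groups (0.65 in Dox+ and 0.66 in Dox-) and was shared by library number, since the SD of its 3 paired log2 ratios was 0.22.

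Whether any 2 of the genes changed by different amounts was tested on their log2 ratio in each library, where transcript length cancels. Of 10 ratios compared, none could pass, because 3 against 3 libraries give an exact two-sided permutation p of at least 0.1, so the differences are given as values. The ratio of CCN4 to CCN5 averaged 3.59 in Dox+ and 3.08 in Dox- cells on the log2 scale, a difference of 0.51, and was the one ratio at that smallest p (exact permutation p = 0.1, adjusted p = 0.67 over the 10 ratios). It was higher in Dox+ in each of the 3 pairs, by 0.099, 0.37 and 1.06 in pairs 1 to 3. Without Dox- 3 its group difference was 0.23. The ratio of CCN2 to CCN4 (differences of -0.32, -0.43 and -1.003 in pairs 1 to 3) was lower in Dox+ in every pair. So was that of CCN1 to CCN6 (-0.15, -1.16 and -2.17). The ratio of CCN2 to CCN6 differed by -0.70, -0.0068 and -3.05. In pair 2 its sign came from the 1 added to each count, as CCN2 stood at 63.2% and CCN6 at 62.7% of Dox-. Without Dox- 3 (15 CCN6 reads) the group difference of CCN1 to CCN6 went from -1.16 to -0.40. That of CCN2 to CCN6 went from -1.25 to -0.28. The 10 ratios share genes, so they are not independent. The ratio of CCN2 to CCN5 averaged 5.80 in Dox+ and 5.87 in Dox- cells (differences of -0.22, -0.06 and 0.06 in pairs 1 to 3).

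CCN3, the remaining family gene, was higher in Dox+ cells. It had 153943, 148209 and 154870 normalized counts in Dox+ 1 to 3 and 1096, 1321 and 1498 in Dox- 1 to 3 (log2 fold change 6.88, SE 0.18, limma adjusted p = 5.9e-07). Of the counts of all 6 CCN genes, uncorrected for length, CCN3 held 70.9% to 86.0% in Dox+ libraries, against 1.52% to 2.13% in Dox- libraries. CCN1 held 8.79% to 20.6% in Dox+ and 62.0% to 78.6% in Dox- libraries, and CCN2 held 3.76% to 7.28% in Dox+ and 15.1% to 32.1% in Dox- libraries, so the makeup of the family's counts shifted mainly through CCN3.

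To find genes with a like pattern, each member's log2 profile over the 6 libraries, centred on its mean, was set against every other named gene with a mean of at least 50 (10943 candidates, 10944 for CCN6). Likeness was the root mean square difference of the profiles, given as a description of these libraries. Nearest to CCN2 were SYTL2 (0.080 log2 units), AOC3 (0.13) and PLXNA2 (0.15), where the CCN2 profile itself had an SD of 0.65. For CCN5 they were PLGRKT (0.085), PPIL1 (0.093) and ARHGEF25 (0.10), and for CCN4 they were GTF2H1 (0.040), PACRGL (0.049) and CD9 (0.050). The nearest to CCN1 were WASF3 (0.24), EDN2 (0.26) and KIAA0513 (0.27), and the nearest to CCN6 were FAM117B (0.12), STK17B (0.14) and MIER3 (0.17). The SD of the member's own profile was 0.60 for CCN1, 0.14 for CCN4, 0.39 for CCN5 and 0.93 for CCN6. A nearly level profile such as that of CCN4 lies near other level ones, so the differences are not compared between members. CCN1, CCN2, CCN3, CCN4 and CCN5 were not among the 3 nearest of any member, and CCN6 lay below the mean required of a candidate.

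**Figure D3:**
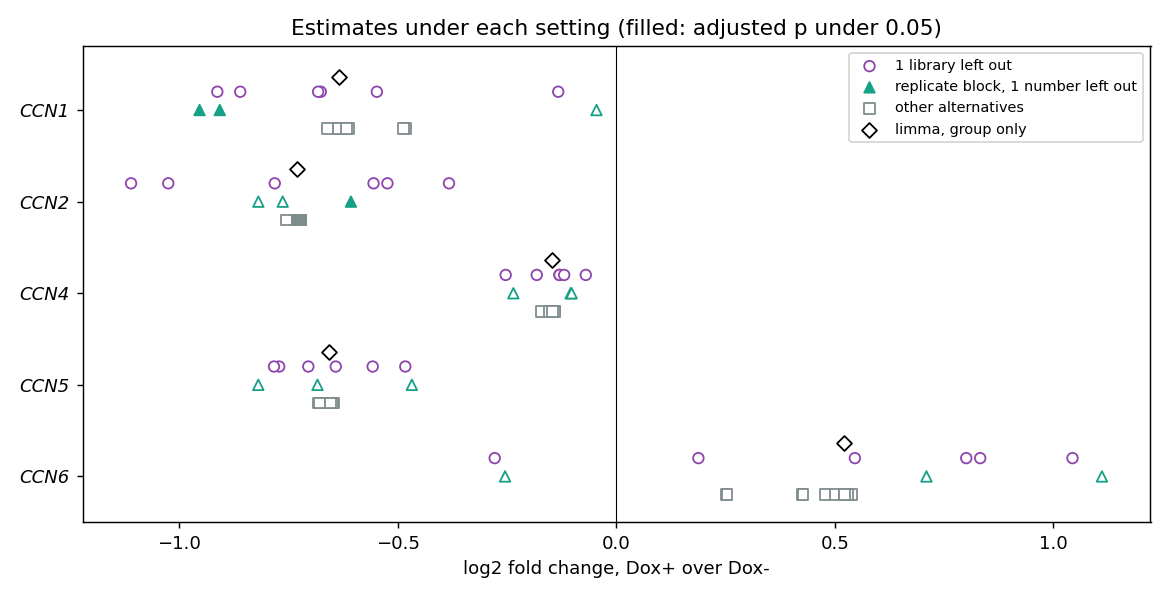
Log2 fold change of each CCN gene in limma with group only (diamond), with 1 library left out (circles), with the replicate block and both libraries of a number left out (triangles), and under the other alternatives (squares). Filled marks have an adjusted p under 0.05. CCN2, CCN4 and CCN5 stay below 0 under each alternative run, CCN1 comes close to 0 without the libraries numbered 2, and CCN6 lies on both sides of 0.

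Genes that are commonly switched on together with CCN1 and CCN2 were counted next, from lists of textbook targets. These lists were chosen with earlier results of these data known. Of the other YAP and TEAD targets, 17 of 20 were tested, 0 passed, and the median log2 fold change was -0.079. Among them CCDC80, a matrix protein, stood at 248210 ± 50407 in Dox+ and 117593 ± 82935 in Dox- cells, and NT5E, the enzyme CD73, stood at 18527 ± 5646 in Dox+ and 29704 ± 7231 in Dox- cells (SD, n = 3 each). With the block, which called 4.86% of all genes higher, 2 were higher and 0 lower, CCDC80 (limma adjusted p = 0.048) and IGFBP3, a binding protein of insulin-like growth factors, at 5145 ± 2963 in Dox+ and 629 ± 660 in Dox- cells (adjusted p = 0.0502 without the block and 0.00035 with it). IGFBP3 was named after its values were seen. Of the 17 tested targets, 10 had a log2 fold change below 0, beside 6655 of all 13180 genes. ANKRD1, another common YAP readout, is named although it was below the filter, with means of 14.8 in Dox+ and 2.45 in Dox- cells. It had 15.2, 3.53 and 25.6 normalized counts in Dox+ 1 to 3, against 5.52, 0 and 1.83 in Dox- 1 to 3. A read is worth 0.441 (Dox+ 2) to 2.33 (Dox+ 3) normalized counts, so these are few reads and ANKRD1 was not tested.

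Components of the Hippo pathway, which restrains YAP, numbered 18 tested genes, of which 0 passed (median 0.14). The coactivator gene WWTR1 had 3032 ± 1131 normalized counts in Dox+ and 4548 ± 2624 in Dox- cells, and the kinase gene STK3 had 3636 ± 307 in Dox+ and 3033 ± 758 in Dox- cells (SD, n = 3 each). With the block 2 were higher, beside 4.86% of all genes, the TEAD factor gene TEAD2 (limma adjusted p = 0.040) and WWC1, an activator of the pathway (adjusted p = 0.042), both named after their values were seen, and 0 were lower.

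Among TGF-beta response genes 14 identifiers were tested, TSC22D1 being listed under 2 of them, and 0 passed (median 0.0018). TGFBI, a matrix adhesion protein gene, had 122575 ± 11286 in Dox+ and 98090 ± 39405 in Dox- cells (SD, n = 3 each). PMEPA1, a feedback inhibitor of TGF-beta signalling named after its values were seen, was the member called with the block, beside 1.65% of all genes called lower, at 6235 ± 1317 in Dox+ against 13421 ± 5743 in Dox- cells (limma adjusted p = 0.022, or 0.14 unblocked).

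None of the 17 immediate early genes, the class to which CCN1 belongs, passed (median 0.22). IER3 had 66721 ± 20330 normalized counts in Dox+ and 92277 ± 19334 in Dox- cells, and JUNB, an AP-1 factor gene, had 21067 ± 7462 in Dox+ and 21551 ± 2941 in Dox- cells (SD, n = 3 each). With the block, which called 4.86% of all genes higher and 1.65% lower, ATF3, a stress-induced bZIP factor gene, was higher (limma adjusted p = 0.019) and JUN, another AP-1 gene, was lower (adjusted p = 0.048), both named after their values were seen.

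Contractile targets of the MRTF and SRF factors, which respond to the actin cytoskeleton, had a median of -0.45, or -0.28 without Dox- 3, whose mean centred log2 level over the list was 0.79, against 0.07 and 0.01 in Dox- 1 and Dox- 2. Of 13 tested genes 10 were below 0, beside 6655 of all 13180, and 1 was called lower, beside 0.357% of all genes. That gene was ACTA2, smooth muscle actin, with 423, 309 and 312 normalized counts in Dox+ 1 to 3, against 1247, 1238 and 1942 in Dox- 1 to 3. The groups did not overlap, and ACTA2 fell 4.18-fold (log2 fold change -2.06, SE 0.26, limma adjusted p = 0.0031). Dropping any single library did not end this call (adjusted p at most 0.031). With the block 3 were lower, beside 1.65% of all genes, ACTA2 and, named after their values were seen, the myosin light chain gene MYL9 (adjusted p = 0.011) and the actin-binding caldesmon gene CALD1 (adjusted p = 0.018). MYL9 had 1892, 1716 and 4525 normalized counts in Dox- 1 to 3, against 1127, 809 and 1081 in Dox+ 1 to 3. CALD1 had 10160, 8939 and 25597 in Dox- 1 to 3, against 5568, 5026 and 4730 in Dox+ 1 to 3. Dox- 3 thus stood above its group for both, and their calls without it are not given. No smooth muscle marker other than ACTA2 was called. MYH11, a defining gene of that cell type, had 0 to 8.46 normalized counts in Dox+ and 0 to 3.68 in Dox- libraries and DES had 5150 to 16005 in Dox+ and 982 to 6373 in Dox- libraries.

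For the Wnt background of CCN4 and CCN5, 13 of 15 listed targets of beta-catenin were tested, and 0 passed (median 0.18). TCF7, a nuclear partner of beta-catenin, had 1211 ± 306 in Dox+ and 1970 ± 493 in Dox- cells, and the cyclin gene CCND1 had 859 ± 382 in Dox+ and 1102 ± 278 in Dox- cells (SD, n = 3 each). With the block, which called 4.86% of all genes higher, BAMBI, a decoy receptor gene named after its values were seen, was higher, at 242 ± 101 in Dox+ and 87.9 ± 26.9 in Dox- cells (limma adjusted p = 0.049, or 0.15 unblocked).

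**Figure D4:**
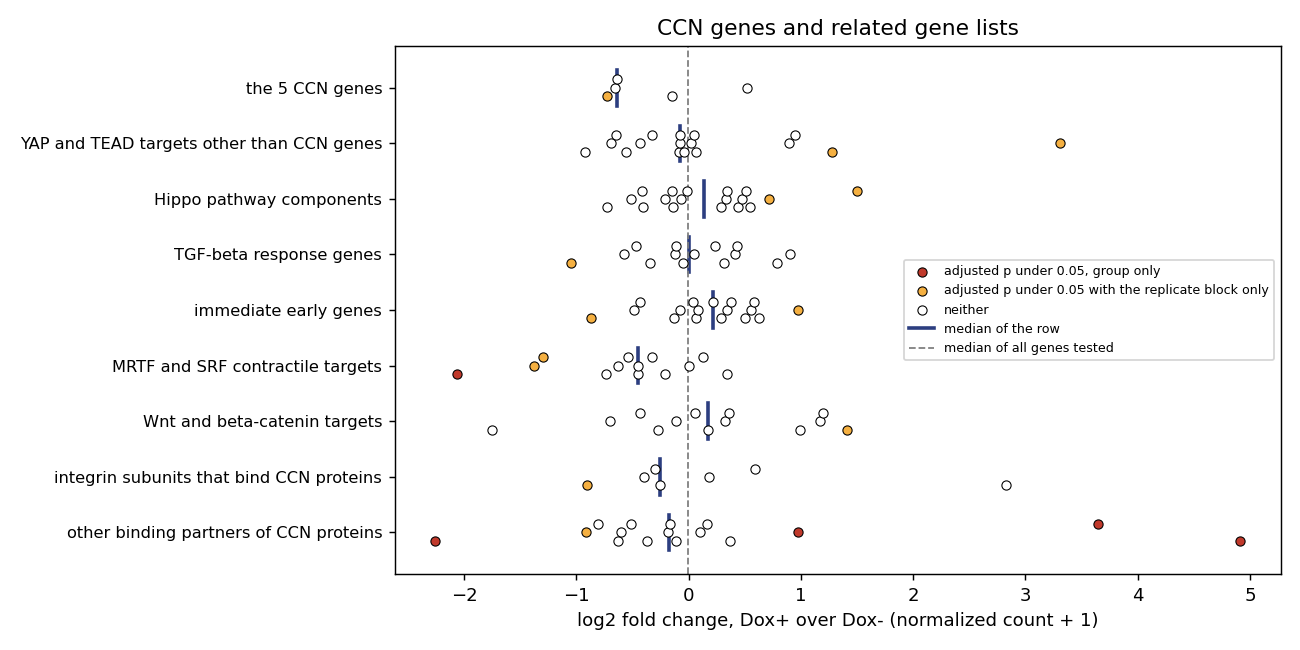
Log2 fold change (Dox+ over Dox-) of the 5 CCN genes and of each tested member of the related lists, where each point is a gene, the blue bar is the median of the row and the dashed line is the median of all genes tested. Red points passed limma with group only and orange points passed only with the replicate block. The called genes are ACTA2 in the contractile list and TNFRSF11B, FGF2, BMP2 and ACAN among the binding partners.

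CCN proteins signal through integrins, and of 9 listed subunits 7 were tested and 0 passed (median -0.25). ITGB1, the common beta subunit, had 91530 ± 16869 in Dox+ and 60872 ± 13627 in Dox- cells, and ITGA5, its partner in the fibronectin receptor, had 42916 ± 2099 in Dox+ and 53135 ± 9293 in Dox- cells (SD, n = 3 each). With the block 1 was lower, beside 1.65% of all genes, ITGB3, the beta subunit of the alpha v beta 3 receptor, which was named after its values were seen. Its level was 3736 ± 1292 in Dox+ and 6769 ± 908 in Dox- cells (limma adjusted p = 0.013, or 0.14 unblocked). The leukocyte subunit ITGAM was at 0 in each library.

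Of the other binding partners 16 were tested, with 3 called higher and 1 lower (median of the list -0.17). Of all genes 2.52% were called higher and 0.357% lower. The list was chosen with earlier results of these data known, so its share of calls is no test against that of all genes. TNFRSF11B, the decoy receptor osteoprotegerin, which CCN2 binds, rose 30.1-fold to 4653 ± 1493 normalized counts in Dox+ cells, against 156 ± 61.5 in Dox- cells (SD, n = 3 each, limma adjusted p = 0.00012). FGF2, a fibroblast growth factor that binds CCN2, rose 12.5-fold to 6077 ± 2799 in Dox+ cells, against 475 ± 221 in Dox- cells (adjusted p = 0.0031). Neither call was lost when any single library was dropped. BMP2 was also called higher and ACAN, the cartilage proteoglycan, lower, but each lost its call without Dox+ 1, Dox+ 3, Dox- 2 or Dox- 3 (limma adjusted p of 0.12, 0.22, 0.16 and 0.12 for BMP2 and of 0.11, 0.17, 0.12 and 0.14 for ACAN), and BMP2 also without Dox+ 2 (0.073). With any 1 library left out, the log2 fold change stayed between 0.86 and 1.13 for BMP2 (0.97 with all libraries). For ACAN it stayed between -2.68 and -1.89 (-2.26 with all libraries). Both passed with the block (limma adjusted p = 0.016 for BMP2 and 6.1e-05 for ACAN). The block added a gene called lower, beside 1.65% of all genes, HSPG2, the heparan sulfate proteoglycan perlecan, named after its values were seen (adjusted p = 0.025, or 0.11 unblocked).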

How the data were processed

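Per the labels' protocols, libraries were made with the KAPA mRNA HyperPrep kit from Trizol-extracted RNA of 6 cultures after 11 days of G418 selection, and titles give group and number. One text of the series gives the doxycycline dose in other units than the labels' treatment protocol. The deposited signal table holds normalized counts, each library's counts divided by 1 factor by the authors. Its steps gave whole reads for 100% of values above 0 (within 0.01 read). The submitters' processing notes name STAR 2.5.2b, Salmon, DESeq2 and FastQC 0.11.3 and MultiQC 1.2, with bosTau9 and ARS-UCD1.2 as builds, but give no order. The sources used here do not state how strand was counted, and overlapping genes may share reads. The authors' deposited comparison table gives log2 fold changes and p-values, and whether it used a block or shrinkage is not stated. Its unadjusted p for CCN6 was 0.47, as in DESeq2 with the block (0.47), against 0.74 in DESeq2 without it. Its log2 fold change of CCN6 was 0.13, against 0.48 in DESeq2 with the block. Deposited log2 fold changes may thus be shrunken and are not directly comparable with those computed here.

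The two-sided test was limma (version 3.58.1 in R 4.3.3, moderated by eBayes with a mean-variance trend) on log2(normalized count + 1) of the 13180 genes whose mean reached 10, with group as the only term, Benjamini-Hochberg adjustment over all of them and a threshold of 0.05. The filter was passed by 5 of 5 members. The added 1 shrinks changes of genes with few counts. edgeR 4.0.16 (quasi-likelihood) and DESeq2 1.42.0 on recovered reads, other pseudocounts, filters, scalings and left-out libraries were alternatives. The fits were also run on simulated data. Those held only changes larger than the estimates of the 5 members, and no effect of the library number. They thus do not bear on changes as small as those of the members or on the gain from the block.

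The libraries' numbers were taken to pair them, since deviations from the group means over genes correlated at 0.65, 0.44 and 0.21 for numbers 1, 2 and 3, and at -0.59 to 0.18 for unlike numbers (0.18 for Dox+ 2 with Dox- 3). The labels name 3 knees but do not state this pairing outright. The p-values rest on 3 knees. Without molecular identifiers a read is not an independent molecule, so intervals of counts cover counting error only. The members and lists were chosen with earlier results of these data known. Named genes were the members, CREB5, CCN3, the 3 nearest patterns of each member, and from each list the called genes or, with none called, the 2 with the highest mean (uncorrected for length), of which 1 is not reported here. Of the 9 marker lists, chondrocytes had 2 called genes, smooth muscle had 1 and the others had 0.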

Additional observations from a re-analysis of the deposited data

How the results depend on the processing

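The log2 fold changes of CCN4 and CCN5 kept their sign and stayed short of the threshold under each of the 20 alternatives run, with ranges of -0.25 to -0.069 and -0.82 to -0.47. CCN2 stayed below 0 under its 20 alternatives and passed in 4 of them, those with the replicate block in limma (-0.73), edgeR (-0.72) and DESeq2 (-0.73) and the blocked fit without pair 3. With 1 library left out, the value ranged over -1.11 to -0.38 for CCN2, -0.91 to -0.13 for CCN1 and -0.28 to 1.04 for CCN6, which turned negative without Dox- 3. With the block and a pair left out, it ranged over -0.82 to -0.61, -0.95 to -0.045 (past the threshold without pair 1 or 3) and -0.25 to 1.11 for the same genes, the last negative without pair 3. CCN6 gave no value at a mean of at least 50. The fits with the block and a pair left out were added after seeing the data.

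Over all genes, 640 were called higher and 218 lower by limma with the replicate block, 591 and 190 by edgeR with it, 542 and 159 by DESeq2 without it and 743 and 306 by DESeq2 with it, against 332 and 47. With 1 library left out, 139 to 365 were higher and 9 to 72 lower, and with the block and pair 1, 2 or 3 left out 602, 934 and 917 were higher and 188, 276 and 537 lower. The block changed no call of CCN1, CCN4, CCN5 or CCN6 with all libraries. With libraries left out, the median of the TGF-beta response list ranged from -0.11 to 0.18, that of the Hippo list from -0.046 to 0.31, that of the immediate early genes from -0.033 to 0.32, that of the YAP and TEAD targets from -0.17 to -0.0037, that of the Wnt targets from 0.051 to 0.38, that of the contractile targets from -0.58 to -0.28, that of the integrins from -0.33 to -0.16 and that of the binding partners from -0.35 to -0.085. The difference in log2 ratio turned sign for CCN1 to CCN2 (-0.15 to 0.56), CCN1 to CCN5 (-0.22 to 0.42), CCN2 to CCN5 (-0.33 to 0.18) and CCN4 to CCN6 (-1.11 to 0.025). The cause of these changes was not tested. Of 273 values under alternatives, 230 were unchanged by a rule that differed by kind of value. Members had to keep their direction and side of the threshold, and list medians to move by less than the spread. Counts of called genes had to stay within a set fold of the main count, and ratios had only to keep their sign. Counting error is largest for CCN6, with 15 to 102 reads a library, and the part of depth in its spread was not tested.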

Other observations

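CCN2 and CCN5 had their lowest Dox+ share of the Dox- level in the same pair, number 3 (50.9% for CCN2 and 48.7% for CCN5), which was also the pair with the largest ratio of CREB5, 66.5-fold, against 41.1-fold and 40.4-fold in pairs 1 and 2. CCN1 was at 93.9% and CCN4 at 102.0% in that pair. With 3 pairs and pairs 1 and 2 nearly equal in CREB5, this is given as values and was not tested.

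Within the 5 genes without CCN3, the share of CCN4 in the counts was 3.77%, 9.21% and 4.005% for Dox+ 1 to 3, against 3.94%, 3.93% and 3.14% for Dox- 1 to 3. The high share in Dox+ 2 stood beside a CCN4 level of 2213 there, between its other values, and beside the lowest CCN1 and CCN2 levels of the 6 libraries.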
